A study of Mus musculus with 6 samples.

Results

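The nuclear receptor family was followed in the epididymal fat, a visceral depot of male mice, under 2 diets. Members were taken by gene symbol from a list of the family, with no filter on level or change, and 46 of the 54532 genes in the count table were members. The list was chosen with earlier results of these data known. The test between diets covered 15751 genes, and 33 of the 46 receptors were among them. Male C57BL/6J mice received a normal diet (ND) with 4.5% fat or a high-fat diet (HFD) with 60% fat from the age of 4 weeks, and the diets lasted 16 weeks, which brought the mice to the age of 20 weeks. RNA-Seq covered 3 libraries of each diet, all labelled as without treatment, and no label tells whether a library came from a single mouse or a pool. The p-values therefore measure the spread between these libraries.

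Nuclear receptors are transcription factors that carry a DNA-binding domain, which Nr0b1 and Nr0b2 of this list lack. Most members have a pocket for a small lipid-soluble ligand such as a steroid, thyroid hormone, retinoid, oxysterol or fatty acid. Many bind DNA as heterodimers with a retinoid X receptor (RXR) and exchange corepressors for coactivators when the ligand binds, while orphan members have no established natural ligand. In fat, PPARγ is required for the formation and upkeep of adipocytes and is the receptor bound by the thiazolidinedione drugs.

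Promoter sequence was taken from RefSeq windows on the mouse build GRCm38.p6, which reach 250 bases before each transcription start. The windows covered 42 of the 46 receptors with 63 starts. The stretches shown here belong to receptors that fell on HFD, and only bases outside annotated exons are printed, 5′ to 3′ on the strand of the gene. Capitals mark a nuclear receptor core site, AGGTCA on either strand. The Esr1 stretch lies at chr10:4709908-4710154 on the plus strand, before the second start of the gene, the Nr1h4 stretch at chr10:89506659-89506908 on the minus strand, and the Nr2f6 stretch at chr8:71381961-71382202 on the minus strand. The Esr1 and Nr1h4 stretches lie between exons within the GENCODE spans of their genes, at internal starts, and the Nr2f6 stretch lies directly before its gene.
Esr1: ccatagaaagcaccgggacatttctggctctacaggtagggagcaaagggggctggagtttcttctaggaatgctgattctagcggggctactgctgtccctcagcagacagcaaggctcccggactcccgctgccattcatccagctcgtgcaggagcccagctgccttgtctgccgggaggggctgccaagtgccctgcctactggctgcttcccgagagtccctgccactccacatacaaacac
Nr1h4: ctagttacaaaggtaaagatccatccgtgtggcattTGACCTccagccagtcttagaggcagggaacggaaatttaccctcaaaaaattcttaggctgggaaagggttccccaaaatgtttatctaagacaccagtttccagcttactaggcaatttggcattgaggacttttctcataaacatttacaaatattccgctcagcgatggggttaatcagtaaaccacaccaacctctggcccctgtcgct
Nr2f6: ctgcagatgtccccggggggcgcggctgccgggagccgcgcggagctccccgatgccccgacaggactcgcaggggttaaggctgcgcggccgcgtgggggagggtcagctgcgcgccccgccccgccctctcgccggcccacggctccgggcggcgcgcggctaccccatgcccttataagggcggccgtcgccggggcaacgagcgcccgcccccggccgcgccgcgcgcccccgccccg
The Nr1h4 stretch held 1 core site, written TGACCT because it lies on the opposite strand, and the other stretches held none. The GC content was 44.4% before Nr1h4, 59.9% before the second Esr1 start and 81.8% before Nr2f6, against a median of 52.4% over 32851 windows of all genes and 58.8% over the windows of the family. A core site stood in 11 of the 63 receptor windows (17.5%) and in 14.0% of all windows. The E-box CACGTG, the CCAAT box and the TATA box TATAAA, each searched on both strands, stood in 7.94%, 33.3% and 12.7% of the receptor windows and in 6.02%, 33.8% and 12.4% of all windows. A direct repeat of the core site with 1 base between the copies, the arrangement preferred by PPAR and RXR heterodimers, stood in 0.0335% of all windows and in 0 of the receptor windows. The windows of Nr2f1, Nr2f2 and the first Esr1 start lie inside annotated exons of these or other genes and are not printed. Thra, which also fell on HFD, had no window.

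The count totals lay between 16996896 and 18859320 per library, so that 3 counts, used as the floor, corresponded to 0.150 to 0.181 CPM (counts scaled to a common library size by the TMM factor that edgeR derives for each library). Adipocyte transcripts were abundant in every library, and the summed CPM of 10 adipocyte markers lay between 23938 and 30068 on ND and between 13794 and 30306 on HFD, lowest in HFD replicate 3 and highest in HFD replicate 2. Of these 10 markers, 3 were lower and 1 was higher on HFD. The summed CPM of 9 macrophage markers lay between 1752 and 1842 on ND and between 3772 and 8290 on HFD, with HFD replicate 3 again at the extreme, and 7 of the 9 were higher on HFD. ND replicate 3 stood apart by epithelial transcripts, with a summed CPM of 275 over 7 epithelial markers against 9.04 to 12.5 in the other libraries. Of the other marker lists, 2 of 4 smooth muscle and pericyte markers were lower on HFD, and none of the 6 lymphocyte, 6 endothelial, 6 progenitor or 6 mesothelial markers passed the edgeR test in either direction, with 2 lower at an unadjusted p under 0.05 and 1 lower by DESeq2. In whole tissue, fewer cells of a type and less RNA per cell cannot be told apart.

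Between receptors, levels were compared on FPKM, the deposited fragment values scaled by gene length and sequencing depth. Pparg was the most abundant receptor on both diets, at 92.1 ± 11.2 FPKM on ND and 58.9 ± 21.3 FPKM on HFD (SD, n = 3). On ND it was followed by Rxra (49.9 ± 4.87), the oxysterol receptor gene Nr1h3 (42.4 ± 4.90), Thra (36.5 ± 3.56), the glucocorticoid receptor gene Nr3c1 (33.9 ± 3.46), Esrra (28.4 ± 5.59), Nr1h2 (25.7 ± 0.851) and the clock repressor Nr1d1 (20.2 ± 2.31). In this order Pparg stood above Rxra by more than the SDs, and Nr1h2 stood above Nr1d1 in the same way, while the other neighbours overlapped within 1 SD. The 8 most abundant receptors made up 72.3% to 75.8% of the summed receptor FPKM of an ND library. On HFD the order was Pparg, Nr1h3 (41.6 ± 3.09), Rxra (32.3 ± 8.16), Nr1h2 (25.9 ± 0.899), Esrra (24.4 ± 2.44), Nr3c1 (23.5 ± 3.80), Nr1d1 (18.0 ± 7.11) and Thra (17.4 ± 5.43), and each of these neighbours overlapped within 1 SD. A mean above 10 FPKM was reached by 11 receptors on either diet, and 19 of the 46 stayed under 1 FPKM on both.

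**Figure D1:**
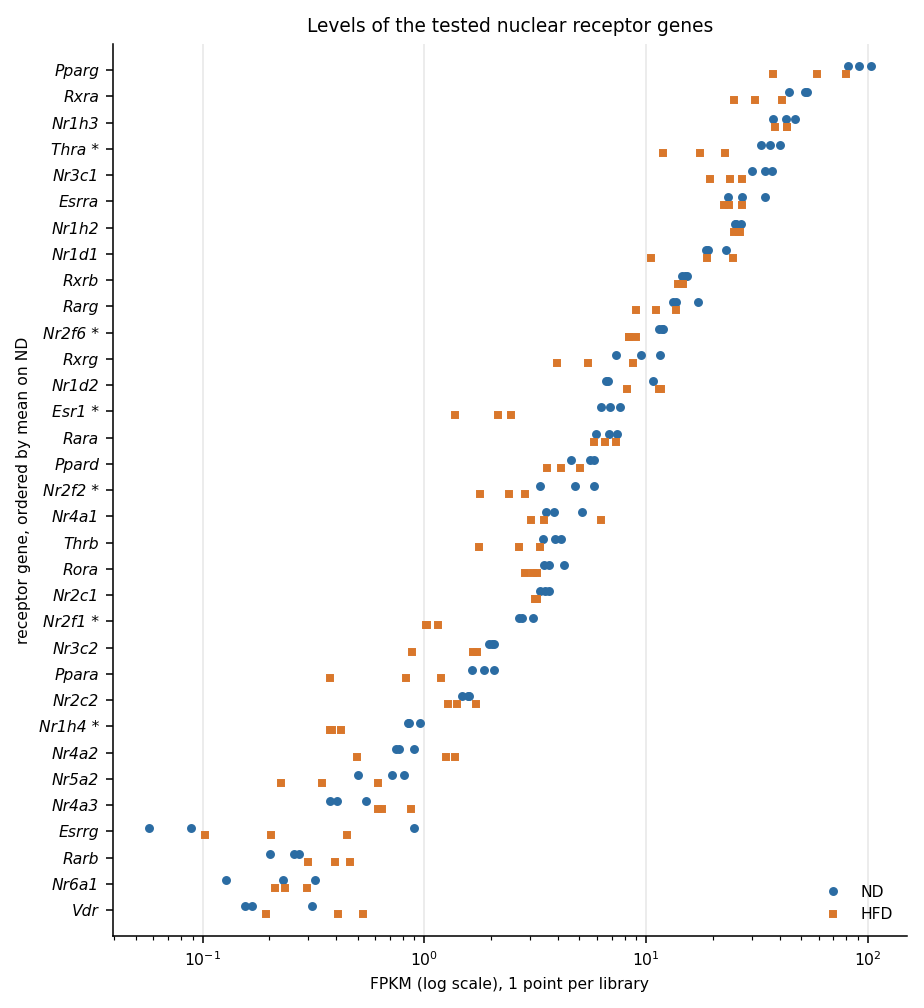
FPKM of the 33 tested receptor genes on a log scale, with a point for each of the 3 ND (blue circles) and 3 HFD (orange squares) libraries, ordered by the mean on ND. Pparg lies at the top on both diets, and asterisks mark the 6 receptors lower on HFD, which lie between 0.884 (Nr1h4) and 36.5 FPKM (Thra) on ND.

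The receptors were lower or undecided on HFD, and none was higher. By edgeR's quasi-likelihood test with Benjamini-Hochberg adjustment over all 15751 genes, 6 of the 33 tested receptors had an adjusted p under 0.05, and all 6 were lower on HFD: Esr1, Nr2f1, Nr1h4, Thra, Nr2f2 and Nr2f6. These are 18.2% of the tested receptors, where 6.04% of all genes tested were lower on HFD and 9.85% were higher, 15.9% in all. The log2 fold change (HFD over ND) was negative for 25 receptors and positive for 8, with a median of -0.31, and 75.8% were negative against 49.5% of all genes tested, whose median was 0.0074. Every HFD library lay below every ND library for 13 tested receptors, where 19.1% of all genes did so, and above for 2, where 21.7% of all genes did so. The diets overlapped for the other 18.

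At an unadjusted edgeR p under 0.05, 11 receptors were lower and 1 was higher, where 15.3% of all genes tested were lower and 18.7% were higher. DESeq2's Wald test on the same counts put 9 receptors lower and 0 higher, with 8.42% of its 18952 genes lower. The 3 it added were Ppara, Rxra and Nr3c1. HFD replicate 3 held the lowest value of a tested receptor in 20 of 33 cases (60.6%), and the lowest value of any tested gene in 28.4%. That library also had the highest macrophage marker sum and the lowest adipocyte, endothelial (535 against 999 to 1224 CPM in the others), mesothelial (154 against 222 to 321 CPM) and smooth muscle and pericyte sums (236 against 357 to 730 CPM), and the part of these in the receptor counts was not tested. Without HFD replicate 2, 11 receptors were lower, while 2 were without HFD replicate 1 or without each ND replicate in turn, and 4 without HFD replicate 3. The count over all genes moved under the same omissions. From 952 lower in the main test it went to 1572 without HFD replicate 2, 94 without HFD replicate 1 and 743 without HFD replicate 3. Without ND replicates 1, 2 and 3 in turn it was 155, 215 and 396.

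**Figure D2:**
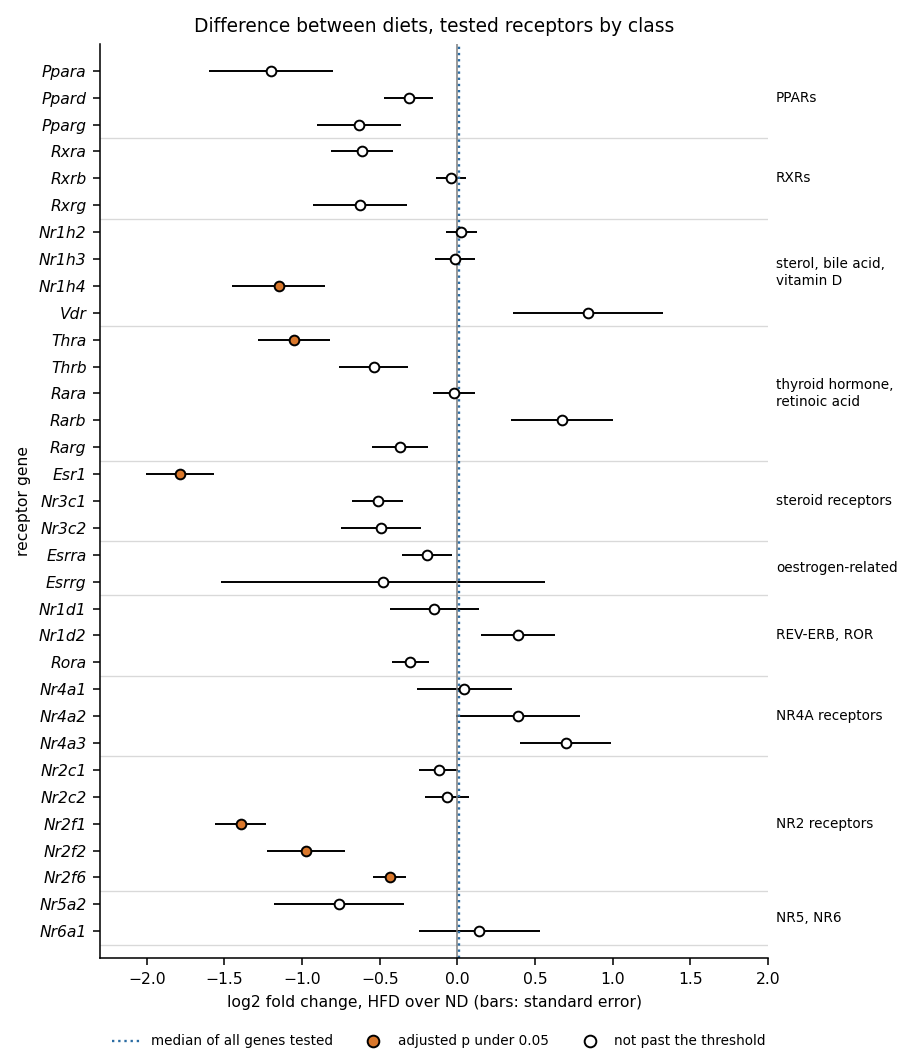
Log2 fold change (HFD over ND) of the 33 tested receptors, grouped by class, with bars for the standard error. Filled points mark the 6 receptors with an adjusted p under 0.05, which all lie left of 0, and the dotted line marks the median of all genes tested.

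Esr1 fell the furthest. It encodes oestrogen receptor α, the main oestrogen receptor of fat, and spans chr10:4611593-5005614 on the plus strand (ENSMUSG00000019768). Its CPM values were 92.0, 83.8 and 104 on ND and 29.2, 33.3 and 18.8 on HFD. The diets were far apart, with the highest HFD library well under the lowest ND library. Esr1 stood at 29.0% of its ND level (log2 fold change -1.78, SE 0.22, edgeR adjusted p = 0.00652). It remained called when any of the 6 libraries was left out and in all of the 17 alternatives, with log2 fold changes between -1.95 and -1.42. The gene of oestrogen receptor β, Esr2, had at most 2 counts in a library and was not tested. Of the other steroid receptors, Nr3c2, the mineralocorticoid receptor, showed a log2 fold change of -0.49 (adjusted p = 0.228), and the progesterone receptor gene Pgr had too few counts for a test.

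Nr3c1, the glucocorticoid receptor, had CPM values of 269, 252 and 223 on ND and 176, 200 and 145 on HFD, with no overlap. Its log2 fold change was -0.51 (SE 0.16), with an unadjusted edgeR p of 0.0149 and an adjusted p of 0.0709, so that it did not pass. It passed with DESeq2 (adjusted p = 0.0255) and without HFD replicate 2 (adjusted p = 0.0337), and the adjusted p over the 6 fits that each left out a library ran from 0.0337 to 0.216. Among 10 genes known to be induced by glucocorticoids, 4 rose and 1 fell, with a median log2 fold change of 0.21. Those that rose were Sgk1 (0.93, adjusted p = 0.00938), Tsc22d3 (0.92, adjusted p = 0.0142), Dusp1 (0.96, adjusted p = 0.0192) and Per1 (0.96, adjusted p = 0.0433). Fkbp5, the immunophilin that restrains the receptor, fell by 0.88 on the log2 scale (adjusted p = 0.0387). Dusp1 and Per1 are also counted in the immediate early and clock lists given later. For this and the other lists, the shares over all genes tested were 9.85% higher and 6.04% lower.

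Of the 5 tested receptors named Nr2, which include the COUP transcription factors, 3 fell and none rose, with the RXRs counted apart. Over all genes tested, 6.04% were lower and 9.85% were higher. Nr2f1, which encodes the orphan receptor COUP-TF1, lies at chr13:78188973-78199757 on the minus strand (ENSMUSG00000069171). Its CPM values were 15.4, 13.3 and 13.9 on ND and 5.14, 5.84 and 5.24 on HFD. The spread within a diet was small beside the gap, and Nr2f1 stood at 38.0% of its ND level (log2 fold change -1.39, SE 0.16, edgeR adjusted p = 0.00624). Like Esr1 it was called in all of the 17 alternatives. Its exons share 123 bases with A830082K12Rik on the opposite strand, which also fell (log2 fold change -1.76, adjusted p = 0.0143), and the sources used here do not say whether counting kept the strands apart.

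Nr2f2 encodes COUP-TF2, which represses adipocyte differentiation genes and marks veins and stromal cells, and lies at chr7:70351944-70366735 on the minus strand (ENSMUSG00000030551). Its CPM values were 40.5, 28.2 and 50.2 on ND and 20.7, 24.4 and 15.3 on HFD. The ND libraries were widely spread, and ND replicate 2 came close to HFD replicate 2 without reaching it. The highest value was that of ND replicate 3, the library with the epithelial transcripts, whose part in it was not tested. Without that library the log2 fold change was -0.80 (edgeR adjusted p = 0.107). With all libraries, Nr2f2 stood at 50.8% of its ND level (log2 fold change -0.98, SE 0.25, edgeR adjusted p = 0.0409) and was called in 7 of 17 alternatives, with adjusted p-values between 0.00377 and 0.127. Among the 6 fits that each left out a library, it was called in 1. It shares 643 bases with the opposite-strand gene B130024G19Rik, whose log2 fold change was -0.052.

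Nr2f6 encodes EAR2, another orphan of the same group, at chr8:71374123-71381960 on the minus strand (ENSMUSG00000002393). It was more abundant than its relatives, at 11.7 ± 0.265 FPKM on ND, and its CPM values were 33.5, 34.9 and 35.1 on ND and 24.9, 26.7 and 24.9 on HFD. The change was small and even, to 73.9% of the ND level (log2 fold change -0.44, SE 0.10, edgeR adjusted p = 0.0321), and was called in 9 of 17 alternatives with adjusted p-values between 0.0124 and 0.118. Among the 6 fits that each left out a library, the change was called in 2. Of its 2983 exon bases, 1622 are shared with Ocel1 on the opposite strand (log2 fold change -0.038, adjusted p = 0.858). The testis receptors Nr2c1 (TR2) and Nr2c2 (TR4) had log2 fold changes of -0.12 and -0.065. Of the 14935 exon bases of Nr2c2, 4590 are shared with either Gm44249 or Mrps25, both on the opposite strand.

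**Figure D3:**
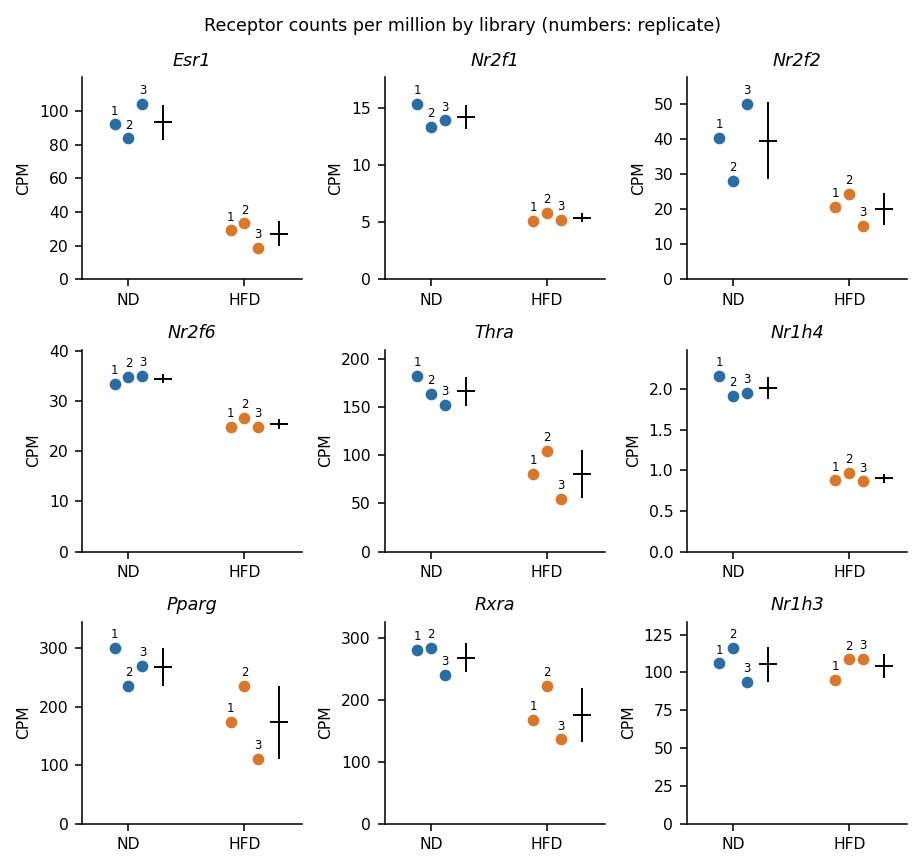
CPM in each library for the 6 receptors lower on HFD and for Pparg, Rxra and Nr1h3, with numbers for the replicate and bars for mean and SD (n = 3). Esr1 and Nr2f1 separate the diets widely, Pparg overlaps at HFD replicate 2, and the Nr1h3 values of the diets overlap.

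Thra, which encodes thyroid hormone receptor α, the more abundant thyroid hormone receptor of these libraries, lies at chr11:98740638-98769006 on the plus strand (ENSMUSG00000058756). Its CPM values were 182, 164 and 152 on ND and 80.7, 105 and 54.9 on HFD. No HFD library came near the lowest ND library. Thra stood at 48.2% of its ND level (log2 fold change -1.05, SE 0.23, edgeR adjusted p = 0.0261) and was called in 12 of 17 alternatives, with adjusted p-values between 0.000416 and 0.1003. Among the 6 fits that each left out a library, it was called in 2. The gene meets Nr1d1 tail to tail, and their exons share 263 bases on opposite strands. Nr1d1 showed a log2 fold change of -0.15 (adjusted p = 0.751).

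Thrb, the β receptor gene, had CPM values of 29.9, 28.1 and 25.2 on ND and 19.8, 24.4 and 13.1 on HFD. The diets were close at HFD replicate 2, and the log2 fold change was -0.54 (SE 0.22, unadjusted p = 0.0464 and adjusted p = 0.141, edgeR). Of 4 tested thyroid hormone target genes none passed, with a median log2 fold change of -0.97. The lipogenic genes Thrsp (-2.27, adjusted p = 0.0546) and Me1 (-1.78, adjusted p = 0.0614) were nearest to the threshold. Both had an unadjusted p under 0.05, both passed with DESeq2, and every HFD library lay below every ND library for both.

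The 3 retinoic acid receptor genes did not pass. Rara and Rarg had log2 fold changes of -0.022 and -0.37, and Rarb, the receptor that is itself a retinoic acid target, had 0.67 (adjusted p = 0.196), with all HFD libraries above all ND libraries at a mean of 2.02 ± 0.429 against 1.27 ± 0.194 CPM (SD, n = 3). Of its 5265 exon bases, 1793 are shared with either Top2b or Gm48162, both on the opposite strand. Among the retinoid enzymes tested, 1 was called lower and 1 higher. Rdh10, which oxidises retinol on the way to retinoic acid, fell (CPM 23.2, 22.2 and 21.8 on ND, 12.8, 14.9 and 11.2 on HFD, log2 fold change -0.79, adjusted p = 0.0165). Dhrs3, which reduces retinal back to retinol and is induced by retinoic acid, rose (CPM 158, 177 and 136 on ND, 281, 277 and 350 on HFD, log2 fold change 0.95, adjusted p = 0.0133). These were the only calls among 17 tested of 23 enzymes that make or remove receptor ligands, whose median log2 fold change was -0.13. Over all genes tested, 15.9% were called in either direction. Dhrs3 was the only call among the 5 tested retinoic acid targets, with a median of 0.15.

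Nr1h4 encodes the bile acid receptor FXR, best known from liver and gut, at chr10:89454234-89533585 on the minus strand (ENSMUSG00000047638). It was scarce in these libraries, counted 40, 33 and 39 times on ND against 16, 16 and 15 times on HFD, or 2.16, 1.91 and 1.95 CPM against 0.874, 0.964 and 0.864 CPM. The diets did not overlap, and Nr1h4 stood at 45.0% of its ND level (log2 fold change -1.15, SE 0.30, edgeR adjusted p = 0.0415). The call was lost whenever a library was left out, with adjusted p-values between 0.0642 and 0.148, and was kept in 6 of the 17 alternatives.

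The oxysterol receptors had log2 fold changes near 0. Nr1h3 (LXRα) had CPM values of 106, 116 and 93.5 on ND and 95.2, 109 and 109 on HFD, a log2 fold change of -0.013 (SE 0.13). Nr1h2 (LXRβ) had 83.6, 82.6 and 89.2 on ND and 89.0, 83.2 and 87.8 on HFD, a log2 fold change of 0.026 (SE 0.10). Neither passed, and both sets overlapped. Their targets went different ways: of 9 tested, 2 rose and 1 fell, with a median of -0.018. The cholesterol exporter gene Abcg1 (CPM 14.7, 14.9 and 16.2 on ND, 118, 93.2 and 169 on HFD, log2 fold change 3.05, adjusted p = 0.00271) and the phospholipid transfer protein gene Pltp (log2 fold change 2.25, adjusted p = 0.00344) rose. Both were highest in HFD replicate 3, the library with the highest macrophage marker sum, whose part in these values was not tested. Srebf1, the lipogenic regulator, fell by 1.12 on the log2 scale (adjusted p = 0.0272). Vdr, the vitamin D receptor, showed a log2 fold change of 0.84 (adjusted p = 0.265), and the xenobiotic receptors Nr1i2 and Nr1i3 had at most 8 counts in a library.

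The 3 PPAR genes all had negative log2 fold changes, and none passed. Pparg had CPM values of 300.2, 235 and 270 on ND and 174, 235 and 110 on HFD. HFD replicate 2 reached the level of ND replicate 2, so that the diets overlapped, and Pparg stood at 64.6% of its ND level (log2 fold change -0.63, SE 0.27, edgeR adjusted p = 0.149). Without HFD replicate 2 it passed (log2 fold change -0.91, adjusted p = 0.0287), and over the 6 fits that each left out a library the adjusted p ran up to 0.337. The order of the HFD libraries for Pparg, with replicate 3 lowest and replicate 2 highest, was also that of the adipocyte marker sum. Among the receptors called lower, Esr1, Thra, Nr2f2, Nr1h4 and, by a narrow margin, Nr2f6 had the same order, whereas Nr2f1 was lowest in HFD replicate 1. The part of the adipocyte marker sum in these values was not tested. That sum is not independent of Pparg, since Adipoq, Plin1, Cidec, Fabp4, Pnpla2 and Lipe are also in the list of PPARγ targets.

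Ppara, the activator of fatty acid oxidation genes, was scarce, with CPM values of 6.15, 7.71 and 7.10 on ND and 3.17, 4.52 and 1.44 on HFD. The diets did not overlap, and the log2 fold change was -1.20 (SE 0.40, unadjusted p = 0.0188 and adjusted p = 0.0813, edgeR). It passed with DESeq2 (adjusted p = 0.0276) and without HFD replicate 2 (adjusted p = 0.0272), with a range of 0.0272 to 0.202 over the fits that left out a library. Ppard, which is expressed in most tissues, had CPM values of 41.2, 43.1 and 34.2 on ND and 30.9, 37.6 and 26.8 on HFD, which overlapped, and a log2 fold change of -0.31 (SE 0.16, adjusted p = 0.212).

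Of 15 PPARγ targets 1 was called. It was Agpat2, an enzyme of triglyceride synthesis, which fell by 1.42 on the log2 scale (CPM 628, 1157 and 405 on ND, 260, 318 and 241 on HFD, adjusted p = 0.0440), and the median of the list was -0.24. Of 13 tested targets of PPARα and PPARδ, 2 rose and 2 fell, with a median of 0.045. Cpt1a, the entry step of fatty acids into mitochondria, rose (1.23, adjusted p = 0.00835), as did Pdk4, which restrains glucose oxidation (1.69, adjusted p = 0.00938). The oxidation enzymes Ehhadh (-1.20, adjusted p = 0.0290) and Cpt2 (-0.78, adjusted p = 0.0375) fell.

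Among the RXRs, the shared heterodimer partners, the α gene was the most abundant on FPKM on both diets. Rxra had CPM values of 281, 284 and 241 on ND and 168, 223 and 136 on HFD, with no overlap. Its log2 fold change was -0.61 (SE 0.20, unadjusted p = 0.0173 and adjusted p = 0.0776, edgeR). It passed with DESeq2 (adjusted p = 0.0286) and without HFD replicate 2 (adjusted p = 0.0145), with a range of 0.0145 to 0.214 over the fits that left out a library. Rxrb stood at 54.3, 52.7 and 56.3 CPM on ND against 51.1, 53.6 and 53.9 on HFD, a log2 fold change of -0.041 with an SE of 0.10. Rxrg stood at 26.1, 21.4 and 16.7 CPM on ND against 12.5, 19.995 and 9.10 on HFD, which overlapped, and a log2 fold change of -0.63 (SE 0.30, adjusted p = 0.194).

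The clock receptors did not pass. Nr1d1 and Nr1d2, the REV-ERB repressors, had log2 fold changes of -0.15 and 0.39 (adjusted p = 0.751 and 0.291, edgeR). Rora, which activates through the same DNA sites, had CPM values of 44.3, 54.9 and 47.6 on ND and 40.2, 41.7 and 37.1 on HFD. The HFD libraries were all lower, and the log2 fold change was -0.30 (SE 0.12, unadjusted p = 0.0409 and adjusted p = 0.131, edgeR). Of 15 clock genes outside the family only Per1 was called, and the median was -0.28.

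The NR4A receptors, immediate early genes that need no known ligand, were the only class with no negative log2 fold change in the main test, although the sign of Nr4a1 turned under 8 of the alternatives. Nr4a3 (NOR1) had CPM values of 2.21, 2.38 and 3.25 on ND and 5.19, 3.85 and 3.69 on HFD. All HFD libraries were higher, and the log2 fold change was 0.70 (SE 0.29, unadjusted p = 0.0475 and adjusted p = 0.143, edgeR). Nr4a1 (NUR77) and Nr4a2 (NURR1) had log2 fold changes of 0.045 and 0.39 (adjusted p = 0.934 and 0.525). Of 13 immediate early genes outside the family 6 rose and none fell, with a median of 0.86, led by Atf3 (4.60, adjusted p = 0.00489), Fos (3.33, adjusted p = 0.00640) and Egr2 (3.17, adjusted p = 0.00789). The summed CPM of the 13 genes on HFD was 1128, 733 and 1266, in the same order of libraries as the macrophage marker sum, whose part in these values was not tested.

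The oestrogen-related receptors, orphans that act with PGC-1 coactivators on mitochondrial genes, did not pass. Esrra showed a log2 fold change of -0.20 (adjusted p = 0.425). Esrrg was counted 10, 6 and 111 times on ND against 23, 46 and 11 times on HFD, and its log2 fold change of -0.48 turned to 1.75 without ND replicate 3. Of their 8 tested targets, 2 fell and 1 rose, with a median of -0.39. The Krebs cycle genes Sdhb (-0.71, adjusted p = 0.0203) and Cs (-0.86, adjusted p = 0.0399) fell, and the gene that rose was Pdk4. The orphans Nr5a2 (LRH1) and Nr6a1 (GCNF) had log2 fold changes of -0.76 and 0.14 and did not pass.

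Of 11 coactivators 1 was called, and the median was 0.063. It was Ppargc1a, the gene of PGC-1α, with CPM values of 7.99, 8.93 and 10.2 on ND and 1.80, 3.01 and 1.21 on HFD and a log2 fold change of -2.17 (SE 0.35, edgeR adjusted p = 0.0114). Of the 7 corepressors reported here 2 fell, and their median was -0.16. Nrip1 (RIP140), which represses oxidation genes in fat, fell (CPM 177, 140 and 135 on ND, 64.3, 93.1 and 60.2 on HFD, log2 fold change -1.05, adjusted p = 0.0182), and so did the deacetylase gene Hdac3 (-0.42, adjusted p = 0.0303). Ncor1, a scaffold of the corepressor complexes, had a log2 fold change of -0.14, with an adjusted p of 0.559.

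**Figure D4:**
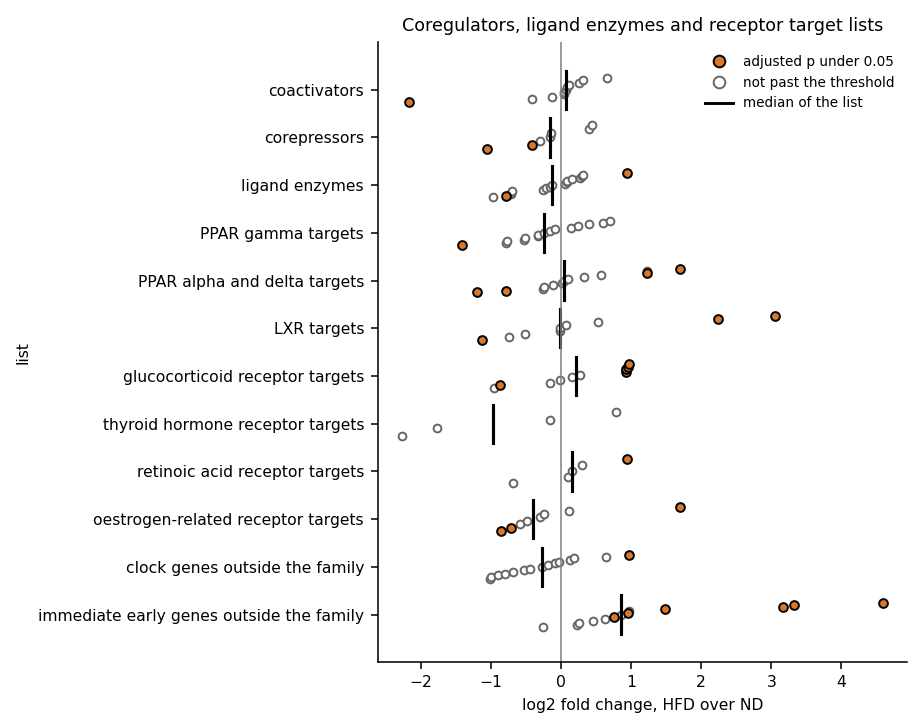
Log2 fold change (HFD over ND) of each tested gene in the lists of coregulators, ligand enzymes, receptor targets, clock genes and immediate early genes, with a vertical bar at each median. Filled points had an adjusted p under 0.05, and the medians run from -0.97 for thyroid hormone targets to 0.86 for immediate early genes.

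The other 13 receptors did not pass the filter on low counts, which asks for a minimum level in at least 3 libraries, and were not tested. Hnf4a, an epithelial factor of liver, gut and kidney, was counted 0, 0 and 631 times on ND against 1, 0 and 0 times on HFD, so that ND replicate 3 held 99.8% of them. The epithelial markers Epcam (37.5 CPM), Cdh16 (41.8 CPM) and Foxj1 (54.5 CPM) were high in the same library and at most 0.346 CPM in the others, and their part in the Hnf4a count was not tested. Nr5a1 (SF1), the factor of steroid-producing organs, was counted 6, 8 and 9 times on ND against 1, 12 and 2 times on HFD, which overlapped. Nr1i2 had 8 of its 9 counts in ND replicate 3, and Esrrb had 10 of its 16 in ND replicate 2. Esr2, Pgr, Nr1i3, Rorb, Nr2e1, Nr0b1 and Nr0b2 had at most 8 counts in any library, and Hnf4g and Nr2e3 had 0 in all 6, where a count of 0 allows up to 0.181 CPM by counting error alone.

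**Figure D5:**
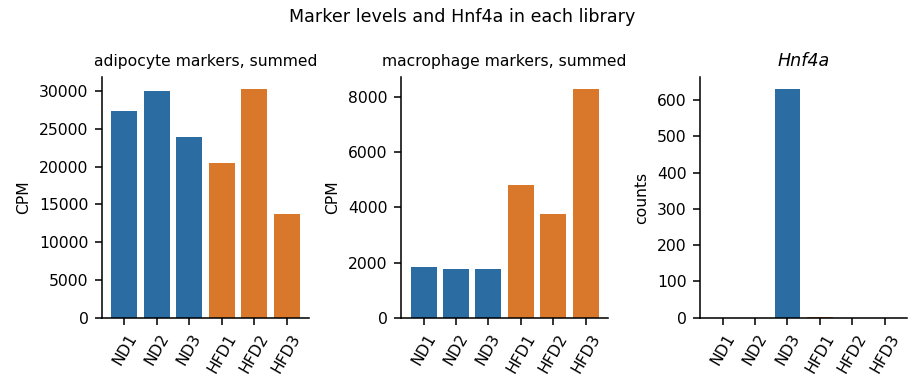
Summed CPM of the adipocyte and macrophage markers and the Hnf4a count in each of the 3 ND (blue) and 3 HFD (orange) libraries. Among the HFD libraries, replicate 3 has the lowest adipocyte sum (13794) and the highest macrophage sum (8290), and Hnf4a is confined to ND replicate 3 but for 1 count.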

How the data were processed

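Epididymal fat RNA of 3 ND and 3 HFD libraries was analysed, and diet and replicate number came from the sample labels. The authors deposited raw counts per gene and FPKM values for the same genes. TopHat and Cufflinks on GRCm38 are named in the paper's methods, whereas the submitters' processing notes name fastp, HISAT2 2.0.5, featureCounts 1.5.0-p3 and DESeq2 1.20.0 and a human build, and the identifiers are mouse. Libraries were made with the NEBNext Ultra RNA kit, and the strand setting of the counting is not given in the sources used here.

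The members and gene lists were chosen with earlier results of these data known, and the epithelial markers with earlier results of the third ND library known. Every tested receptor and every list was counted, and values in each library were given for the PPAR, RXR and LXR genes, for receptors with an unadjusted p under 0.05 and for untested receptors with more than 10 counts in a library. From the lists, at most 4 called genes in each direction were named by adjusted p, with Ppargc1a and Ncor1, and 1 gene of the lists is not reported here. Thrsp, Me1, Nr1i2 and Esrrb were named after their values were seen.

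Diets were compared by the quasi-likelihood F-test of edgeR 4.0.16 under R 4.3.3 (robust fit, TMM, filterByExpr) with diet as the only factor, fitted on the whole table with Benjamini-Hochberg adjustment and a threshold of 0.05. As alternatives, DESeq2 1.42.0 and the voom method of limma 3.58.1 were run, with other scaling and filters, the replicate number as a block, limma on log2(FPKM + pseudocount) and the omission of each library. The code was tested on simulated data. No exact test of a single gene was run, since 3 against 3 cannot go below p = 0.1. Gene coordinates are from GENCODE M21 (GRCm38). No pair of replicates agreed within sampling noise. Same-numbered libraries come from different mice, and the correlations of their deviations were -0.086, -0.056 and -0.0053. Those of differently numbered libraries lay between -0.055 and 0.110, so these values gave no sign of pairing. Whether same-numbered libraries shared a batch was not tested.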

Additional observations from a re-analysis of the deposited data

How the results depend on the processing

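The direction of the 6 receptors lower on HFD was the same in all of the 17 alternatives, Esr1 and Nr2f1 passed in all of them, and no receptor was higher in any. The number of receptors that passed was 6 in the main test, 2 with limma on log2(FPKM + 1) without a filter, 3 with library size alone as the scaling and 3 with the replicate number as a block. Leaving out 1 library gave 2 to 11 receptors, with 11 without HFD replicate 2 and 2 without HFD replicate 1 or without any ND replicate. All genes went from 2504 to 579 without a filter on FPKM and to 474 to 3940 with a library left out, highest without HFD replicate 2. The reported coregulators, 5 with DESeq2, went from 3 to 1 and to 0 to 7, the target, clock and immediate early lists from 21 to 9 and to 7 to 25, and the ligand enzymes from 2 to 0 and to 0 to 3 under the same settings. The cause was not tested. The block, whose numbers mark different mice, gave 1886 genes. Its receptor calls were Esr1, Nr2f1 and Thra. Among receptors that did not pass, signs turned for Esrrg (0.26 by limma-voom, 0.38 with the block, -1.18 to 1.75 with a library left out, 1.75 without ND replicate 3) and for Nr4a1 (-0.0071 by limma-voom, -0.013 with the block and with log2(FPKM + 1), filtered or not, -0.024 with log2(FPKM + 0.1), and -0.38 to 0.24 with a library left out). With a library left out, ranges that crossed 0 were -0.026 to 0.058 for Nr1h2, -0.12 to 0.066 for Nr1h3, -0.14 to 0.044 for Rara, -0.47 to 0.11 for Nr1d1, -0.18 to 0.0055 for Nr2c2 and -0.15 to 0.46 for Nr6a1. Low counts limit the precision of Nr1h4, and 13 receptors were not tested.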

Other observations

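The balance between related receptors within a library is given here as values, with no test. The summed FPKM of the 46 receptors was 460, 435 and 428 on ND against 336, 375 and 279 on HFD. Pparg made up 22.5%, 18.6% and 21.4% of that sum on ND and 17.6%, 21.4% and 13.4% on HFD, so that the diets overlapped, whereas Esr1 made up 1.49%, 1.44% and 1.79% on ND and 0.639%, 0.654% and 0.495% on HFD, which did not overlap. The ratio of Thra to Thrb FPKM was 9.77, 9.35 and 9.67 on ND and 6.54, 6.88 and 6.74 on HFD, with a narrow spread within each diet. Rxra over Rxrb was 3.50, 3.65 and 2.90 on ND and 2.22, 2.82 and 1.71 on HFD. Pparg over Nr1h3 was 2.41, 1.72 and 2.46 on ND and 1.56, 1.85 and 0.865 on HFD, with HFD replicate 2 above ND replicate 2. Nr1d1 over Nr1d2, the REV-ERB pair, was 2.90, 2.77 and 2.12 on ND and 2.12, 2.30 and 0.923 on HFD.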
